A study of Mus musculus with 9 samples.

Results

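The distal sites near Ly6c2 are the positions on mouse chromosome 15 at which NLRC5 ChIP-seq of T cells gave a peak within 50 kb of the Ly6c2 transcription start site (TSS). They were taken from 7 deposited peak lists, in which peaks that overlapped by at least 1 bp were merged into a site. Under this rule 4 of 7980 sites, made of 17 of 8593 peaks, were members. They are called here, in the order of their coordinates, the left, distal, middle and right sites. The distal site is the one that the study listed under Ly6c2, which it named only as the closest gene. The study selected that site from these same lists, and the members were chosen here with their presence in the lists known, so presence, scores and ranks are given as a description and were not tested between genotypes.

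T cells had been enriched on magnetic beads against CD4 and CD8 from mice of 6 to 12 weeks of age, and chromatin of 5 mice was pooled for each genotype before immunoprecipitation with a rabbit polyclonal antibody raised against amino acids 1–139 of mouse NLRC5. WT and Nlrc5F/F mice, the latter with a floxed Nlrc5 gene and used as a control genotype, were on a C57Bl/6 (H2b) background, as were the Nlrc5-/- mice. Rfx5-/- mice were on a mixed Sv129/C57Bl/6 (H2b) background, so that the Rfx5 genotype and the strain background cannot be told apart. Each genotype is 1 library. The lists WT A to WT E are 5 pseudo-replicates drawn from the reads of that 1 WT library, so that they carry no information on variation among mice. Their narrowest peaks were 118, 124, 102, 95 and 98 bp wide. The study derived the shift size of peak calling from the estimated fragment length. It ran the cross-correlation used for such estimates on each pseudo-replicate. The shift size used for each list is not known here. Whether the lists differ by read sampling alone or also by this setting was therefore not settled. Reads of Nlrc5-/- cells served as the control for peak calling in the lists, which therefore share it. The Nlrc5-/- and complete WT data sets were not analysed here in their own right. The purity of the T cells could not be checked, since the lists hold positions and no expression values.

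The lists held 459, 529, 1436, 1043 and 1207 peaks for WT A to WT E, 1949 for Nlrc5F/F and 1970 for Rfx5-/-. Each peak carries a score, the −log10 of the p-value of the peak caller, and the lowest score of a list was between 3.01 and 3.19. Read counts are not part of the lists. The depth of single peaks is therefore unknown, and a missing peak says only that no position there passed the calling threshold. Scores depend on the number of reads, and for this reason ranks within a list are given beside them.

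NLRC5 is a member of the NLR family that moves to the nucleus and transactivates major histocompatibility complex class I (MHCI) genes. It does not bind DNA by itself but is recruited to MHCI promoters by a multiprotein complex assembled on the S, X and Y boxes, in which the RFX factor, with its subunit RFX5, occupies the X box. Ly6c2 encodes a Ly6C protein of the Ly6 family, small GPI-anchored proteins of the cell surface whose genes lie in a cluster on chromosome 15. Ly6C is used as a marker of inflammatory monocytes and of subsets of CD8+ T cells.

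The sequences of the 4 sites are shown because the sites differ in what kind of DNA they hold. They were read from the GRCm38.p6 reference, plus strand, 5′ to 3′. Capitals mark the bases that differ from, or have no partner in, the aligned part of the most similar copy found elsewhere. Copies were searched on the assembled chromosomes only. This copy was on chromosome 9 for the left site and on chromosome 16 for the distal and middle sites. For the right site its most similar copy on chromosome 16 was used. The alignment of the middle site began at its base 3, and the bases before it are in lower case. The left site (chr15:75085515-75085612), the distal site (chr15:75085766-75085912) and the middle site (chr15:75086280-75086386) are shown whole, and of the right site the 229 bp that its peaks in all 7 lists had in common (chr15:75086772-75087000).
left site: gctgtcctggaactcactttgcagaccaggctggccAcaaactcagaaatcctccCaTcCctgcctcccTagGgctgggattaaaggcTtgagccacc
distal site: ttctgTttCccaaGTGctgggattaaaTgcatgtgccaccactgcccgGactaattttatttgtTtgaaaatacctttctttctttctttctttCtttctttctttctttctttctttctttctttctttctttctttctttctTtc
middle site: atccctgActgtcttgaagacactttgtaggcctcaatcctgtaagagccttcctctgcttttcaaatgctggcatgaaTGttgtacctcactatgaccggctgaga
right site: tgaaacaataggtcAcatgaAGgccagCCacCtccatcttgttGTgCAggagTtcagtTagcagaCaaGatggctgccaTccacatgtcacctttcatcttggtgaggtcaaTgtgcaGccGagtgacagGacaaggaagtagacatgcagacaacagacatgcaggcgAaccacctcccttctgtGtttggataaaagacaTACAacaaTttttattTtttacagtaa

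The second part of the distal site is a simple repeat. The unit CTTT was repeated 18 times without interruption over 72 of its 147 bp, from base 75 to base 146. A search on both strands for CTTT (AAAG on the other strand) repeated at least 10 times found such a run in 4 of all 7980 sites (0.0501%), in 1 of the 32 sites present in all 5 WT lists, which is the distal site, and in 0 of 32851 RefSeq promoter sequences of 300 bases from the same build. The middle site, by contrast, had 3 capitals over 105 aligned bases, since a copy on chromosome 16 matched it at 97.1%.

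All 4 sites lay within a single stretch of 1504 bp. Gaps of 153, 367 and 327 bp separated the left from the distal, the distal from the middle and the middle from the right site. Their centres were 26406, 26131, 25637 and 25104 bp from the TSS of Ly6c2 (ENSMUSG00000022584.14, chromosome 15, 75108158 to 75111970, minus strand, GENCODE M21). The gene is transcribed towards the sites, which therefore were on its 3′ side, 21139 to 22545 bp past its last annotated base.

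None of the 4 sites overlapped an exon, intron or UTR of an annotated gene. The nearest TSS was in each case not that of Ly6c2 but that of Gm28502, a lincRNA gene (75076210 to 75079094, minus strand), at 6469.5 bp from the centre of the left site and 7772 bp from that of the right site. Ly6c1, the close paralog of Ly6c2, had its TSS 36685 bp from the nearest base of a member site. On the other side of Ly6c2 lay Ly6g, which encodes the Ly6G protein of neutrophils and whose TSS was within 50 kb of that of Ly6c2, at 68222 bp from the nearest site.

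The 50 kb limit left out 1 peak narrowly. A WT C peak of 140 bp with a score of 3.71, ranked 1193, had its centre 51478.5 bp from the Ly6c2 TSS, whereas the farthest member was 26406 bp away. On the 5′ side of Ly6c2 the first peak of any list was a WT A peak 457370.5 bp from the TSS.

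The distal site was present in 6 of the 7 lists. Its score was 22.3 in WT A, 22.6 in WT B, 27.7 in WT C, 34.2 in WT D, 24.6 in WT E and 26.8 in Nlrc5F/F, and no Rfx5-/- peak overlapped it. The Nlrc5F/F score lay inside the range of the WT lists, whose median was 24.6 (SD 4.89 over the 5 pseudo-replicates). Its ranks were 11, 10, 9, 9 and 8 in WT A to WT E and 5 in Nlrc5F/F. It thus stood among the highest peaks of every list in which it was found, and above it in the Nlrc5F/F list were only peaks with scores of at least 36.7. Of all 7980 sites, 32 (0.401%) were present in all 5 WT lists, and of those 32 a peak was found in Nlrc5F/F at 17 (53.1%) and in Rfx5-/- at 10 (31.2%). This background is given beside the distal site only for orientation, because these lists were used to select it.

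The right site was present in all 7 lists, Rfx5-/- included. Its score was 14.6 in WT A, 15.2 in WT B, 16.6 in WT C, 7.71 in WT D, 14.8 in WT E, 3.70 in Nlrc5F/F and 5.89 in Rfx5-/-. The Nlrc5F/F and Rfx5-/- scores were both below the lowest WT score, and the WT D score was below the other WT scores, which spanned 14.6 to 16.6. The WT median was 14.8 (SD 3.47 over the 5 pseudo-replicates). The ranks of the right site were 13, 14, 16, 58 and 18 in WT A to WT E, 1598 of 1949 in Nlrc5F/F and 182 of 1970 in Rfx5-/-. It therefore stood higher in the Rfx5-/- list than in the Nlrc5F/F list, where its score was close to the lowest score of the list, 3.07. Presence in all 7 lists was found at 6 of 7980 sites (0.0752%), the right site being 1 of them.

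The left site was found only in 2 of the WT lists, with a score of 13.9 and rank 14 in WT D and a score of 10.7 and rank 31 in WT E. It had no peak in WT A, WT B, WT C, Nlrc5F/F or Rfx5-/-. The middle site was found in WT C, with a score of 16.7 and rank 15, and in Nlrc5F/F, with a score of 11.3 and rank 14, and had no peak in the 5 other lists. The left and the middle sites were thus never in the same list. Among 4170 sites present in 1 to 4 WT lists, to which both belong, 61 (1.46%) had a peak in Nlrc5F/F and 47 (1.13%) in Rfx5-/-. Of the 101 peaks that ranked 20 or better in a WT list, ties included, 80 were at sites present in all 5 WT lists, and the middle site in WT C was the only 1 at a site present in a single WT list.

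**Figure D1:**
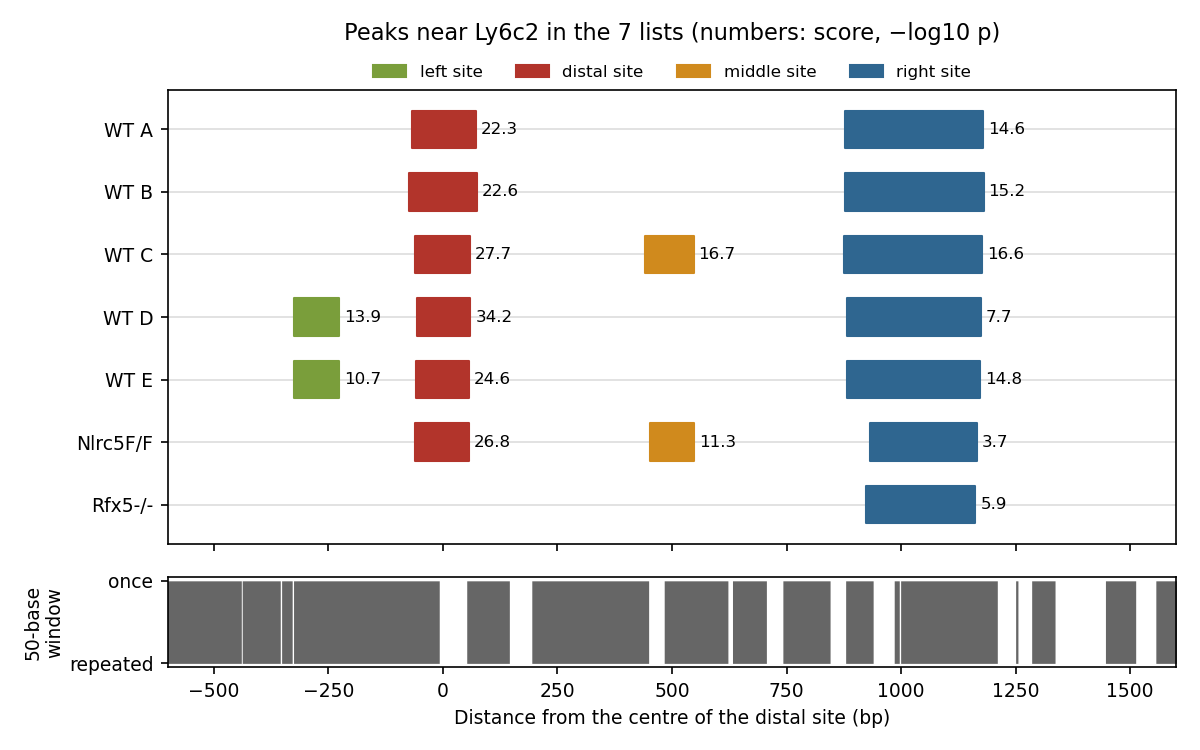
Peaks of each of the 7 lists near Ly6c2, with distance in bp from the centre of the distal site on the x axis, 1 row per list, bar width for peak width and the score (−log10 p) beside each bar. The lower strip shows, for each base, whether the 50-base window that starts there occurs once on the assembled chromosomes or is repeated. The distal site is present in all rows except Rfx5-/-, the right site in all 7 rows.

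In the plot of peaks by list the extent of each site can be compared. Peaks at the distal site were 140, 147, 121, 117 and 116 bp wide in WT A to WT E and 117 bp in Nlrc5F/F, which was 18 to 23 bp above the narrowest peak of the same list. Their starts agreed within 16 bp and their ends within 17 bp. Peaks at the right site were 301, 303, 302, 291 and 291 bp wide in WT A to WT E, 232 bp in Nlrc5F/F and 238 bp in Rfx5-/-. The last 2 were narrower than every WT peak there, and the narrowing was mostly at the side facing the distal site, where starts differed by 58 bp over the 7 lists against 18 bp for ends. Peaks at the left site exceeded the narrowest peak of their list by 2 bp in WT D and 0 bp in WT E, and those at the middle site by 4 bp in WT C and 1 bp in Nlrc5F/F.

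**Figure D2:**
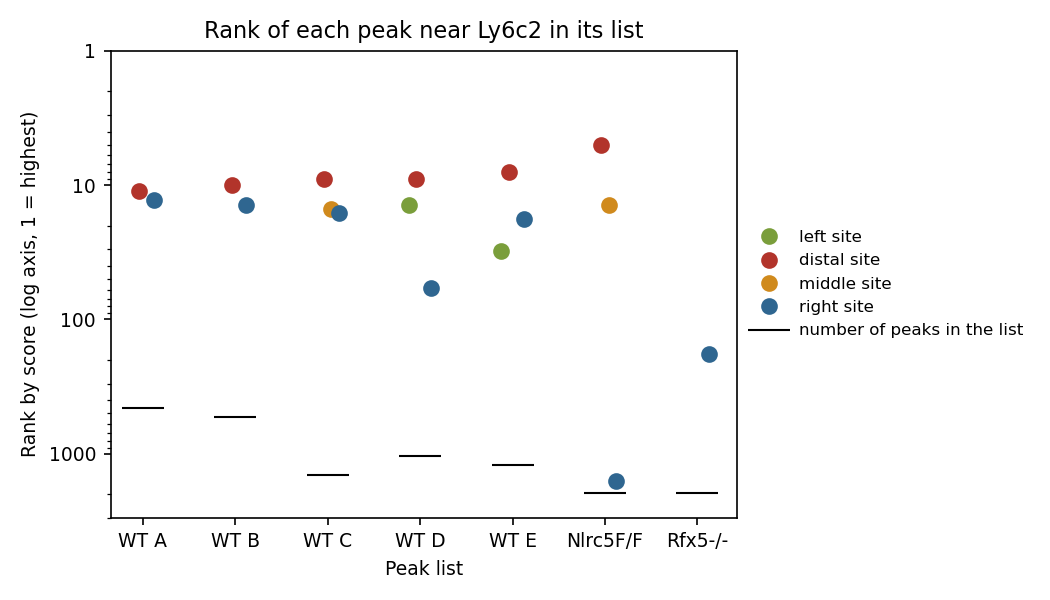
Rank by score of each peak near Ly6c2 within its list (log axis, 1 is the highest score), for the 7 lists on the x axis, with bars for the number of peaks in each list and points of 1 list set slightly apart for clarity. The distal site ranked between 5 and 11 in 6 lists, and the right site between 13 and 58 in the WT lists but 1598 in Nlrc5F/F and 182 in Rfx5-/-.

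The distal site scored higher than the right site in each of the 6 lists that held both. The difference in score was 7.74 in WT A, 7.43 in WT B, 11.2 in WT C, 26.4 in WT D, 9.85 in WT E and 23.1 in Nlrc5F/F. WT D held the highest distal and the lowest right score of the WT lists, and without it the WT differences were between 7.43 and 11.2.

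The 9 MHCI and related promoter sites of the study gave a reference for these values. Their median WT scores ran from 22.5 at Tap1, which encodes a subunit of the peptide transporter, to 174 at H2-D1, a classical MHCI gene. By median WT score the distal Ly6c2 site ranked 10 and the right site 13 among the 32 sites present in all 5 WT lists, and 1 of the 9 promoter sites, Tap1, was below the distal site. None of the 9 promoter sites had a peak in Rfx5-/-. The distal, left and middle sites had none either, whereas the right site had one, and a missing peak in this single list does not measure dependence on RFX5. The Aida site on chromosome 1, the other non-promoter site of the study, had scores between 13.2 and 41.9 in the WT lists, 6.55 in Nlrc5F/F and 25.4 in Rfx5-/-. Of the 6 sites present in all 7 lists, 3 had a higher score in Rfx5-/- than in Nlrc5F/F, namely Aida, the right Ly6c2 site and 1 site on chromosome 5 (10.4 against 7.25). At the other 3 the Nlrc5F/F score was the higher one.

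At the 17 sites present in each WT list and in Nlrc5F/F, the Nlrc5F/F score was compared with the 5 WT scores of the same site. It was below every WT score at 13 of the 17, including all 9 promoter sites and the right Ly6c2 site. At H2-K1, for example, it was 41.1 against 104 to 150 in WT, and at B2m, which encodes the invariant light chain of MHCI, 25.8 against 66.5 to 96.7. The distal Ly6c2 site was 1 of the 4 sites where it was not below, with 26.8 against 22.3 to 34.2. The others were 2 sites on chromosome 5, with 18.1 against 8.55 to 21.0 and 7.25 against 6.52 to 15.2, and 1 on chromosome 9, with 9.44 against 5.09 to 11.8, and these 3 also had a peak in Rfx5-/-. As a result the distal site, ranked 10 by WT median, ranked 5 among the 17 by Nlrc5F/F score, after H2-D1, H2-T10, H2-K1 and H2-Q7 and just before B2m. The Nlrc5F/F library is single and its number of reads is given in the study's methods only as a lower limit, so this order has no replicate and was not tested.

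**Figure D3:**
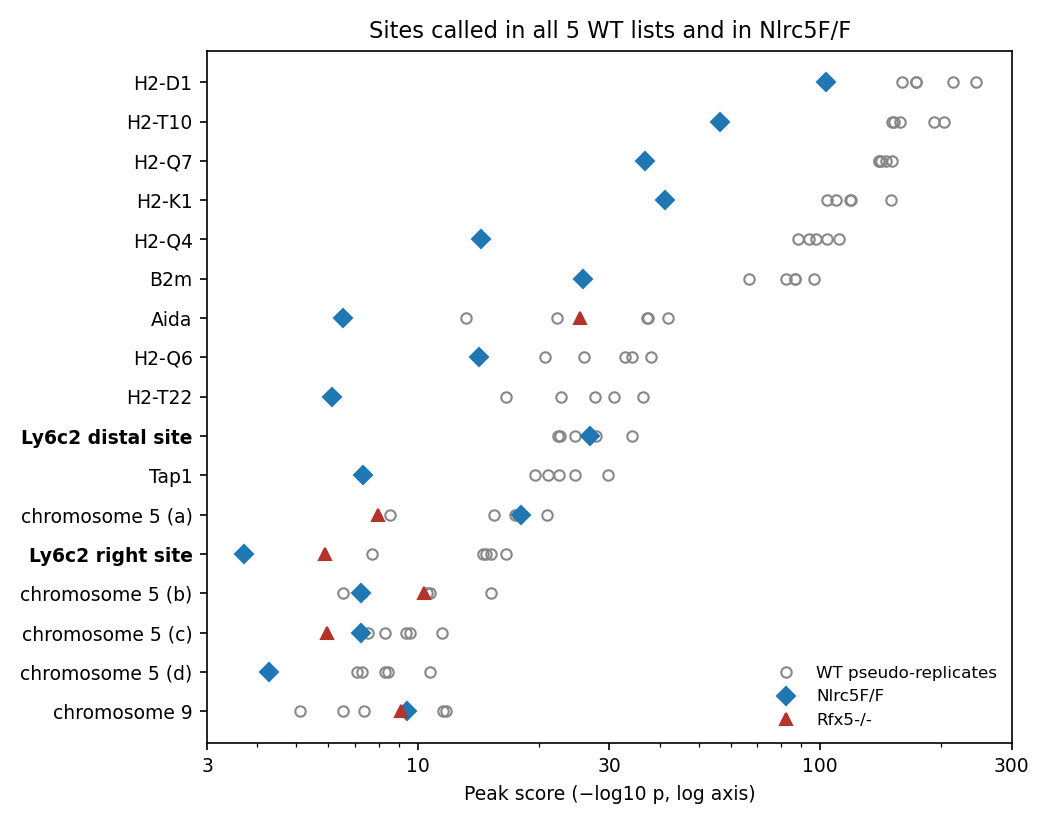
Scores (−log10 p, log axis) at the 17 sites present in all 5 WT lists and in Nlrc5F/F, ordered by median WT score, with open circles for the WT pseudo-replicates, diamonds for Nlrc5F/F and triangles for Rfx5-/- where a peak was present. At the distal Ly6c2 site the diamond (26.8) lies among the circles (22.3 to 34.2), at the 9 promoter sites it lies to their left.

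The crowding of sites was also compared with the rest of the genome. When sites separated by at most 1000 bp were joined, 7840 groups resulted outside the mitochondrial genome, of which 4 held at least 4 sites and 7728 a single site. Besides the group near Ly6c2 these were 2 on chromosome 5 (15460343 to 15463300 and 15679071 to 15681839) and 1 on chromosome Y (90737527 to 90740553), with 5 sites each. Only 2 groups held more than 1 site present in all 5 WT lists, the group near Ly6c2 with 2 and that at H2-Q7 on chromosome 17 (35438513 to 35439569) with 3.

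Since only reads with a unique position were kept by the authors, the sites were examined for repeated sequence. The distal site was repeat-masked over 100% of its length and had a GC content of 33.3%. A 50-base window started at each of its 147 bases. Of these windows 59.2% occurred once on the assembled chromosomes, and the most repeated window occurred 90122 times. The left site was also masked over 100% but had a GC content of 57.1%, and all of its windows (100%) occurred once. The middle site had no masked base (0%) and 68.2% unique windows, with at most 5 copies, and the right site 8.85% masked bases and 82.6% unique windows, with at most 2 copies. Masking and uniqueness thus did not go together at these 4 sites.

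The medians over the 32 sites present in all 5 WT lists were 9.49% masked bases, 48.9% GC and 92.0% unique windows. The distal site was the only 1 of the 32 that was masked throughout, but 3 of the 32, the distal site included, were masked over more than 90%. A site on chromosome 1 was masked over 99.5%, with 33.5% GC and 46.9% unique windows. One on chromosome 5 was masked over 90.8%, with 32.4% GC and 39.3% unique windows. A lower share of unique windows than at the distal site was found at 5 of the 32 sites, and a lower share than at the right site at 9. What the repeats contributed to the peaks was not tested.

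**Figure D4:**
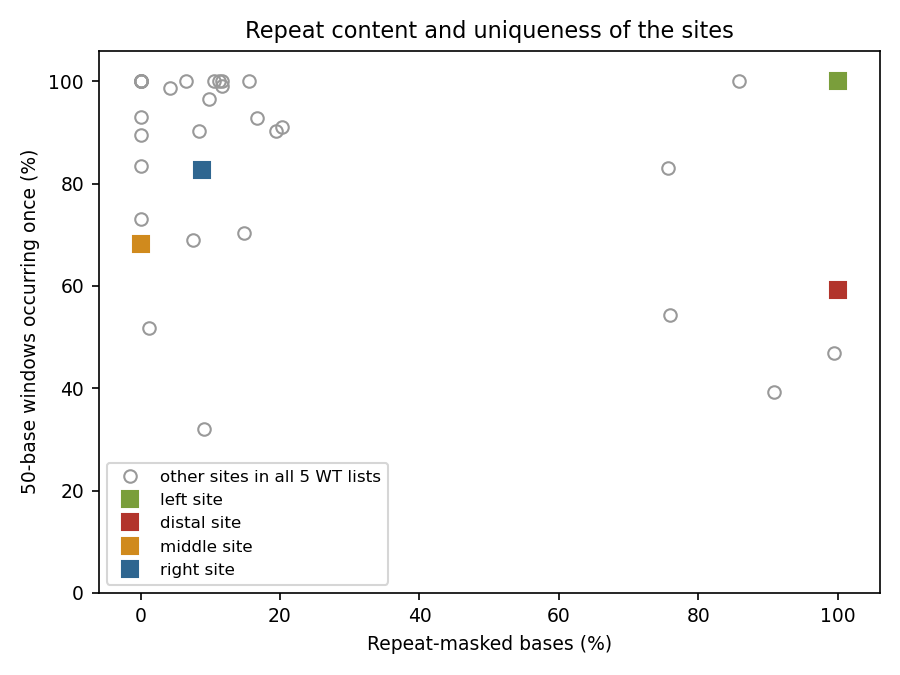
Share of repeat-masked bases (x axis, %) and share of 50-base windows that occur once on the assembled chromosomes (y axis, %) for the 4 sites near Ly6c2 (squares) and the other sites present in all 5 WT lists (open circles). The distal site lies at 100% masked and 59.2% unique, the right site at 8.85% and 82.6%.

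Each site had similar copies elsewhere on the assembled chromosomes. The most similar stretch to the distal site was on chromosome 16 (3116784 to 3116930, 93.2% identity over 147 bp), to the middle site on the same chromosome (3116240 to 3116344, 97.1% over 105 bp), to the left site on chromosome 9 (71491204 to 71491301, 92.9% over 98 bp) and to the right site on chromosome 18 (3005532 to 3005833, 92.8% over 305 aligned positions). Copies with at least 90% identity over at least 90% of the site numbered 3 for the distal, 7 for the middle, 19 for the left and 3 for the right site. At least 1 such copy was found for 15 of the 32 sites in all 5 WT lists, so this was not particular to the sites near Ly6c2.

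The best copies of the distal and middle sites lay within a copy of a longer stretch on chromosome 16, whereas that of the right site was on chromosome 18. The 1504 bp from the left to the right site aligned with chromosome 16 at 3115614 to 3116938 (87.4% identity over 1335 aligned positions) in a copy that covered the distal, middle and right sites in the same order. A second copy on chromosome 16 (3349634 to 3350974, 86.2% over 1351) also covered these 3 sites, and a copy on chromosome 18 (3004707 to 3005833, 92.3% over 1148) covered the middle and right sites. There were 15 alignments of at least 500 positions, on 8 chromosomes, with identities from 67.6% to 92.3%. Those of 67.6% to 69.5% covered the distal site with its CTTT run but neither the middle nor the right site. They were the only ones on chromosomes 5, 6 and 9. Of the 15 alignments, 7 lay within 500 kb of the first assembled base of a chromosome. Some of these 7 were close neighbours, such as 3113358 to 3113917 and 3115614 to 3116938 on chromosome 16, and so are not separate places. An alignment on chromosome 2 and 1 on chromosome 19 lay 180935 and 165849 bp from the last base. None of the 15 overlapped a peak of any list, and none had a peak within 1 kb (0 of 15). No share over other stretches of like length was computed beside this count. Reads without a unique position had been left out, and what this did to peaks at the copies was not tested. The count is therefore given only as a description. Shorter copies of the single sites were not checked for peaks.

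The Ly6 family was examined as a list of 18 genes within 1 Mb of Ly6c2. A peak of any list within 5 kb of the TSS was found for 1 of the 18, Ly6h, from a WT A peak with a score of 5.56 at 2027 bp, against 1438 of 21951 protein-coding gene starts (6.55%). Neither Ly6c2 nor Ly6c1, Ly6a or Ly6g had such a peak in any list. For 3 of the 18 genes, Ly6c2, Ly6g and Ly6f, the nearest site of any kind was the right site near Ly6c2.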

How the data were processed

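NLRC5 ChIP-seq peak lists of mouse T cells were used as deposited, 5 for WT pseudo-replicates and 1 each for Nlrc5F/F and Rfx5-/-, of 9 samples described. Per the study's methods, the authors mapped Illumina HiSeq reads to GRCm38, kept those with a unique position, and called peaks against Nlrc5-/- reads at p = 0.001 with smaller data sets scaled up to the larger. The submitters' processing notes name CASAVA 1.8.2, Bowtie 0.12.7 and MACS2 2.0.10.20130520. The deposited score was taken to be the −log10 p-value of the authors' MACS2 run, because the lowest score of each list is just above 3. Counting depth per peak is not given.

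Peaks overlapping by at least 1 bp were merged into sites, and peaks were ranked by score within each list. The Ly6c2 TSS and all gene models came from GENCODE M21 and sequences from the GRCm38.p6 reference, which has the same chromosome coordinates as GRCm38. Sequence copies were searched with BLAST 2.17.0 (E-value limit 1e-05), and 50-base windows were counted on both strands without mismatches. Both searches covered the assembled chromosomes and the mitochondrial genome. Copies on other sequences of the reference, such as unplaced scaffolds, were therefore not counted. Repeat masking was that of the reference. Merging and window counting were tested on simulated data. Python 3.11.15, pandas 2.3.3, numpy 2.4.6, numba 0.67.0, samtools 1.23.1 and matplotlib 3.10.9 were used.

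Named genes were Ly6c2, the genes next to the sites, Ly6 family genes within 50 kb, and for comparison the 9 promoter sites and the Aida site of the study and sites present in all 7 lists. Ly6c1, Ly6a, Ly6f, Ly6h and the groups of 4 or more sites were named after their values were seen. The members and lists were chosen with earlier results of these data known. The CTTT search, the search for copies, the grouping within 1000 bp and the comparison of Nlrc5F/F with WT scores were added after the data were seen. With 1 library per genotype no test between genotypes was made, and Dixon's criterion was applied only to mark pseudo-replicates that lay apart. Alternatives were a minimum score of 5, an overlap of 50% of both intervals, omission of each pseudo-replicate, another TSS, a limit of 100 kb, peaks extended by 200 bp, sites extended by 200 bp or 1 kb, other definitions of recurrence, mitochondrial peaks left out and windows of 36 bases.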

Additional observations from a re-analysis of the deposited data

Results flagged for a closer look

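At the right site, 1 pseudo-replicate lay far from the other 4. The score in WT D was 7.71, against 14.6 to 16.6 in WT A, WT B, WT C and WT E, and its rank in WT D was 58, against 13 to 18. Both gaps exceeded the limit of Dixon's criterion for a group of 5, which is given as a description, since scores and ranks were known when the site was chosen and the pseudo-replicates come from 1 library. The score, rank and width of the distal and the right site gave 6 groups of 5 values, of which these 2 were apart. Chance marks about 1 in 20 such groups, and score and rank of a peak are not independent.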

How the results depend on the processing

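The number of 4 sites, the number of 2 sites in all 5 WT lists and the presence of the distal site in 5 WT lists were the same when peaks needed a score of at least 5 or an overlap of 50% of both intervals, and the 4 and 2 were also the same without each pseudo-replicate. With the limit at 100 kb the sites were 5. Peaks extended by 200 bp joined the 4 sites into 1, since the gaps are short. For the same reason, extending a site by 1 kb gave 3 Nlrc5F/F peaks at the distal and 3 at the right site, and 1 Rfx5-/- peak at the distal site, which is that of the right site. With a score of at least 5 the right site had 0 Nlrc5F/F peaks. Without each pseudo-replicate in turn the median WT score at the distal site was 23.6 to 26.2, and that at the right site moved by less than its SD. With windows of 36 bases 46.3% of windows were unique at the distal and 63.6% at the right site. At the middle site 45.8% and at the left site 87.8% were unique. The middle site was then below the distal site, whereas with windows of 50 bases it was above. The share of recurrent sites with an Nlrc5F/F peak was 32.7% for presence in at least 3 WT lists and 14.9% for at least 2, and the share with an Rfx5-/- peak was 11.6% for at least 2. No paired analysis was possible because no comparison between genotypes comes from a test and the genotypes share only 1 replicate number. Each genotype is 1 library without counts, so neither the spread between animals nor the depth behind a missing peak is known.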
